A study of Artemia parthenogenetic lineage with 3 samples.

Results

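Chromatin accessibility was examined at 3 genes annotated as G-protein-coupled receptors (GPCRs) of different families: an opsin family gene (evm.TU.ctg179.30), a RYamide receptor gene (evm.TU.ctg441.12) and an adhesion GPCR E5 gene (evm.TU.ctg485.29). The names come from the study's text, since the deposited table gives gene identifiers without names. The study picked these genes from changes in accessibility and RNA between time points, with the libraries used here among its data. Their levels here are thus not independent of that choice. The genes were taken by identifier, with every peak that the table assigns to one of them, which gave 3 of the 12002 genes and 37 of the 108316 peaks in the table. In the table every peak carries the listed gene whose start is nearest, so a peak inside a gene can belong to its neighbour. Opsin had 9 peaks, the RYamide receptor 13 and the adhesion receptor E5 15.

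ATAC-seq inserts sequencing adapters into open DNA with the Tn5 transposase, so the read density over a region measures how open its chromatin was. The 3 libraries, replicates 1, 2 and 3 of the ArR_30min group, were made from whole wild-type (WT) cysts of parthenogenetic *Artemia* 30 min after embryonic diapause termination (EDT). Drying and cold had ended the diapause of these Ebinur Lake cysts, and development resumed in lit artificial seawater. The study describes biological replicates from 1 batch of cysts, and all 3 carry the same genotype, treatment and time, so no comparison between conditions could be made.

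GPCRs cross the cell membrane several times and pass a signal from outside the cell to G proteins inside it. Opsins bind retinal and are the light detectors of photoreceptor cells. RYamide receptors bind small neuropeptides, the RYamides, which are known from *Drosophila melanogaster* and other arthropods. Adhesion GPCRs carry a long extracellular part that contacts other cells or the matrix, and the member named E5 is known from mammalian leukocytes. Open chromatin near a gene start often marks a promoter in use, and open chromatin farther away may hold enhancers.

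Library totals were 53022269, 56882821 and 82440231 reads, of which 12.2%, 11.1% and 11.8% lay in the listed peaks. RPM is the read count of a peak scaled to 1000000 reads of the library, and RPM per kb divides it by the peak width, which allows peaks and genes to be compared. The peak list is a merged one. Its peaks outnumber those that the study called in these libraries together, so part of them came from other calls. Those calls may be of other times. The peak limits, and so the widths that divide RPM, come from the same merged list. By the study's own calls, the deepest library had far more peaks than the others. Being listed thus does not show that a peak was open at 30 min. A peak was called above background when its count exceeded the density outside peaks (0.570 to 0.577 RPM per kb) in all 3 libraries (one-sided Poisson test, adjusted p below 0.05). By this measure 33 of the 37 receptor peaks were above background, against a background share of 90.2% of all peaks, close to the receptor share. Listed peaks that the study called in these same libraries were picked for their reads there. For such peaks, passing this test is largely fixed by that choice. Against a background 2 times higher, 51.6% of all peaks passed, and the receptor count was 15 of 37, made up of 13 of 15 adhesion receptor E5 peaks, 2 of 9 opsin peaks and 0 of 13 RYamide receptor peaks. With read counts halved it was 24 of 37, with 82.1% over all peaks. Whole cysts were used, so a region open in few cells and a region weakly open in all cells cannot be told apart. No cell type markers were checked, since the identifiers carry no names in the table.

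The positions of the peaks differed between the genes. All coordinates are on assembly ASM3288406v1 of a related species, *A. franciscana*, and the table gives gene ends but no exons, introns or UTRs. The opsin gene lay on the minus strand of contig ctg179 at 1723215 to 1811059 and spanned 87.8 kb. The RYamide receptor gene lay on the minus strand of contig ctg441 at 851420 to 1098647 and spanned 247.2 kb, longer than 99.3% of listed genes. The adhesion receptor E5 gene lay on the plus strand of contig ctg485 at 1306284 to 1308491 and spanned 2.21 kb, which placed it at the 13.6th percentile of gene length. A median gene spanned 39.9 kb and had 7 peaks.

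**Figure D1:**
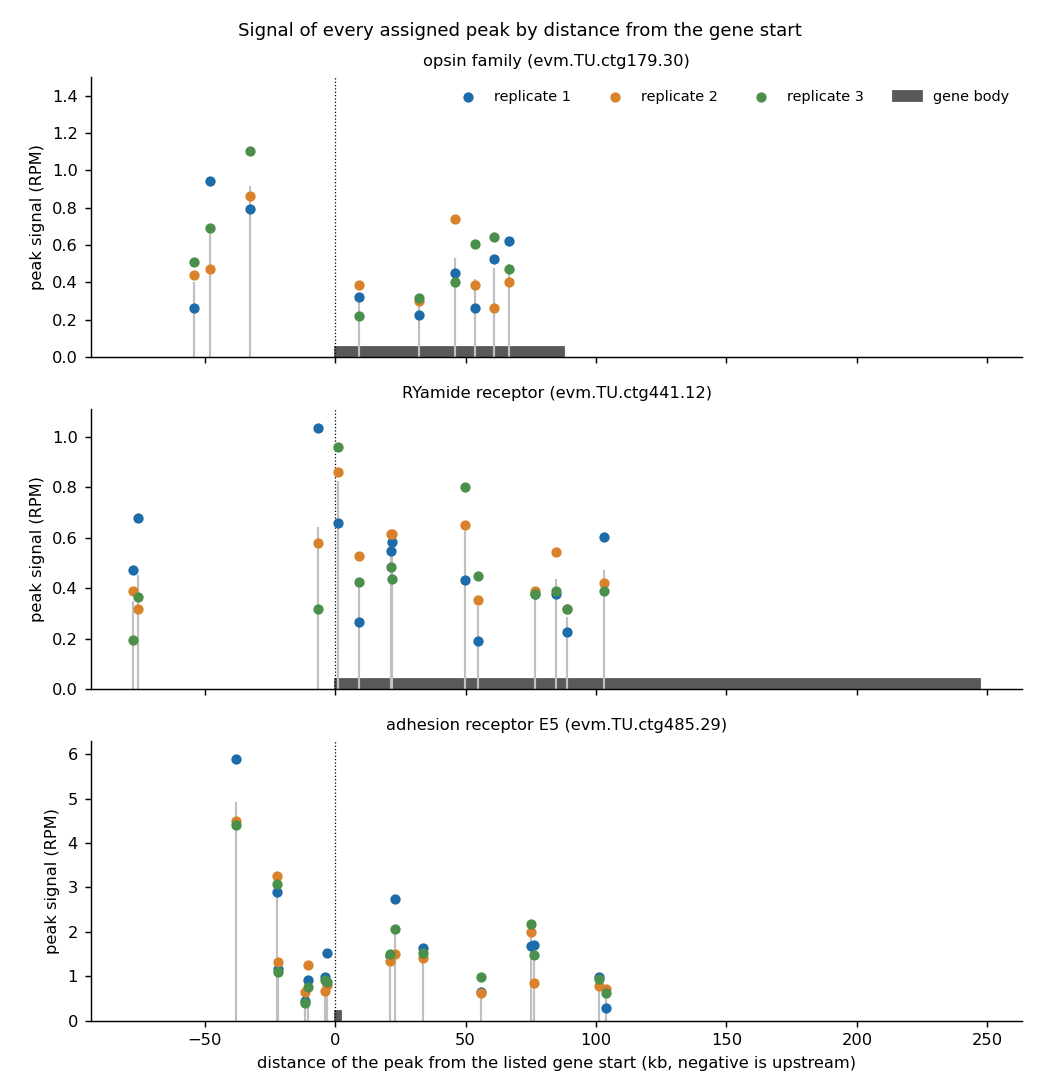
RPM of every assigned peak (y axis, a scale of its own in each panel) by distance from the listed gene start (x axis, kb, negative is upstream), with 1 point per replicate, a grey line up to the mean and a dark bar for the gene. The opsin and RYamide receptor peaks lie mostly over the genes, and the 15 adhesion receptor E5 peaks all lie outside the gene, with the highest mean, 4.93 RPM, 38.1 kb upstream.

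Only 1 of the 37 peaks was a promoter peak, defined as lying within 3 kb of a gene start, and it belonged to the RYamide receptor. None of the 37 covered a gene start. Counting peaks assigned to any gene, none lay within 3 kb of the start of opsin or of the adhesion receptor E5. Of all listed genes, 53.8% had a promoter peak and 26.0% had a peak over the start. The single promoter count depended on the window, since 3 peaks lay within 5 kb. The further peaks in that window were a pair of adhesion receptor E5 peaks, at 3.08 and 3.91 kb upstream.

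The light receptor gene, opsin, had peaks of few reads, and none differed from its class in reads per width. Of its 9 peaks, 6 lay inside the gene and 3 upstream. The peak nearest to the start lay 9.16 kb inside the gene (1801699 to 1801903), where replicates 1, 2 and 3 held 16, 21 and 17 reads, or 0.321, 0.387 and 0.218 RPM. The strongest opsin peak lay 32.5 kb upstream of the start (1843580 to 1843960) and held 41, 48 and 90 reads, or 0.792, 0.861 and 1.10 RPM (mean 0.919 ± 0.164, SD, n = 3). Replicate 3 was the highest at this upstream peak and the lowest at the peak nearest to the start.

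Other opsin peaks were weaker still. The second strongest, 48.1 kb upstream (1859202 to 1859548), had 0.943, 0.475 and 0.691 RPM, with replicate 1 the highest. The third, 46.1 kb inside the gene (1764749 to 1764948), had 0.453, 0.738 and 0.400 RPM, with replicate 2 the highest. The weakest, 32.2 kb inside the gene (1778694 to 1778893), had 0.226, 0.299 and 0.315 RPM (0.280 ± 0.0474). The order of the replicates thus changed from peak to peak. The remaining peaks inside the gene, at 53.4, 61.0 and 66.5 kb from the start, had means of 0.419 ± 0.174, 0.478 ± 0.194 and 0.500 ± 0.111 RPM (SD, n = 3), and the upstream peak at 54.2 kb had 0.404 ± 0.126 RPM. Their ranges over the replicates overlapped one another.

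Each peak was tested against the median peak of its class, with reads per width in edgeR's quasi-likelihood model and Benjamini-Hochberg adjustment over all peaks. The classes were promoter, gene body, downstream (within 300 bp of a gene end) and distal intergenic, with medians of 2.49, 2.08, 2.24 and 2.04 RPM per kb. Across all peaks 21.7% were called higher and 10.2% lower than their class. No opsin peak was called in either direction, and the opsin peaks ran from 1.40 to 2.65 RPM per kb with a median of 2.02. The strongest opsin peak was at a log2 ratio of 0.23 ± 0.18 (SE) to its class (adjusted p = 0.352), and the weakest at -0.65 (adjusted p = 0.0992). Opsin peaks held 11 to 90 reads per library, and 7 of the 9 had under 100 reads over the 3 libraries together. Without division by width, 5 opsin peaks were called, 4 lower and, at 32.5 kb upstream, 1 higher (log2 ratio 0.47, edgeR adjusted p = 0.0214). The shares of all peaks above hold for the test with division by width. Those without it are not given here, so these 5 calls cannot be read as a trait of opsin.

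**Figure D2:**
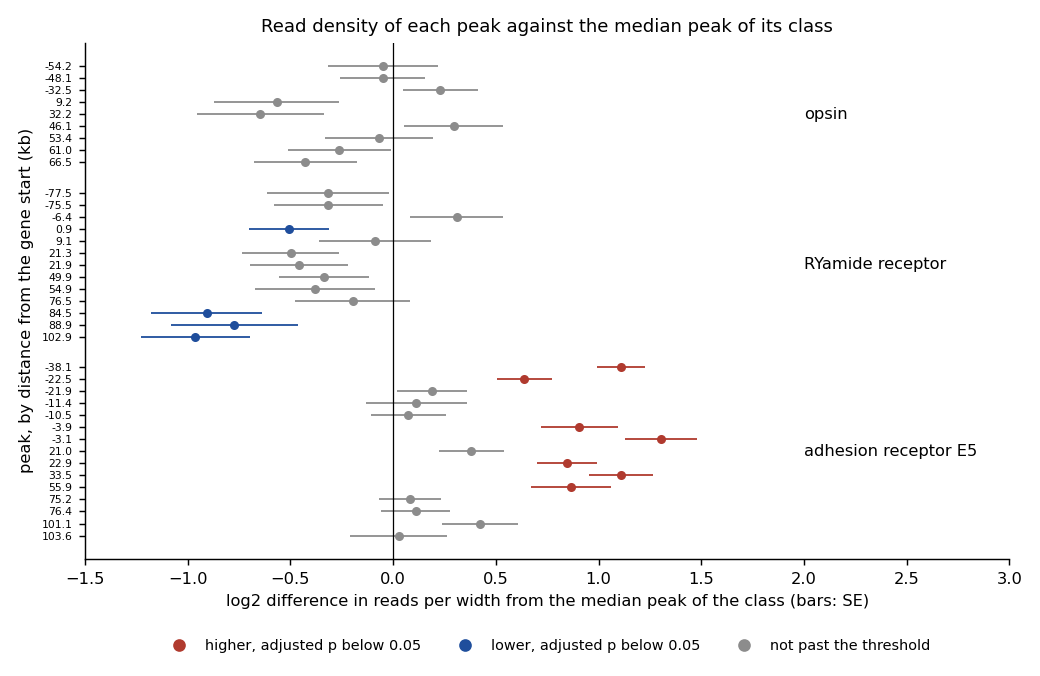
Log2 ratio of reads per width of each of the 37 peaks to the median peak of its class (x axis, bars are the SE of the edgeR fit), listed by gene and by distance from the start in kb (y axis), with peaks called higher in red, lower in blue and not called in grey. The 7 red points are adhesion receptor E5 peaks, the 4 blue points are RYamide receptor peaks, and all 9 opsin points are grey.

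The RYamide receptor gene had peaks that lay mostly below the class medians, and 4 of the 13 were called lower. Of these 13, 10 lay inside the gene and 3 upstream. The promoter peak, 920 bp inside the gene from its start (1097262 to 1097727), was also the strongest of the 13. It had 34, 48 and 78 reads, or 0.660, 0.861 and 0.958 RPM (mean 0.827 ± 0.152, SD, n = 3). Its density fell below the promoter class, at a log2 ratio of -0.51 ± 0.19 (SE, edgeR adjusted p = 0.0348), but this call was lost in 7 of 12 alternative settings, including the omission of any 1 replicate. Among promoter peaks, 14.1% were called lower.

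The second strongest RYamide receptor peak lay 6.43 kb upstream of the start (1105073 to 1105314), with 54, 32 and 25 reads, or 1.04, 0.580 and 0.315 RPM. Replicate 1 was the highest and replicate 3, the deepest library, the lowest, and the peak differed from its class only without replicate 3 (log2 ratio 0.69, edgeR adjusted p = 0.0429). The third strongest, 49.9 kb inside the gene (1048361 to 1048736), had 0.434, 0.650 and 0.801 RPM, the opposite order of replicates. The share of the gene's reads that came from upstream was 33.9%, 19.5% and 14.8% in replicates 1, 2 and 3.

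The peaks called lower than the gene body class lay deep inside the RYamide receptor gene. The peak at 102.9 kb from the start (995359 to 995779) held 31, 23 and 31 reads, or 0.604, 0.422 and 0.388 RPM, and had a log2 ratio of -0.96 ± 0.26 (SE, edgeR adjusted p = 0.00222). The peak at 84.5 kb (1013730 to 1014107) had 0.377, 0.545 and 0.388 RPM and a log2 ratio of -0.91 (adjusted p = 0.00534). The weakest peak, at 88.9 kb (1009569 to 1009791), had 0.226, 0.316 and 0.315 RPM (mean 0.286) and a log2 ratio of -0.77 (adjusted p = 0.0435). These 3 were consecutive among the gene's peaks, and each replicate of each lay below the class median. Among gene body peaks, 8.95% were called lower. In all, 4 RYamide receptor peaks were lower, 0 were higher, and 12 of 13 fell below their class median in value. Without replicate 3, no RYamide receptor peak remained lower, and 2 did without replicate 1 or without replicate 2.

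The other peaks inside the RYamide receptor gene were not called. Neighbouring peaks at 21.3 and 21.9 kb from the start had 0.549 ± 0.0651 and 0.546 ± 0.0955 RPM (SD, n = 3). Peaks at 9.10, 54.9 and 76.5 kb had 0.405 ± 0.133, 0.330 ± 0.131 and 0.380 ± 0.00589 RPM. The 2 far upstream peaks, at 75.5 and 77.5 kb, had 0.453 ± 0.197 and 0.351 ± 0.142 RPM. These means all lay below the 0.827 RPM of the promoter peak. The last part of the gene was not covered by peaks of its own: 15 peaks overlapped the gene, and 5 of them (857699 to 940795, means of 0.183 to 1.53 RPM, not drawn in the plot of peak positions) were assigned to the neighbouring gene evm.TU.ctg441.11, so these did not enter the gene's level.

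The adhesion receptor E5 gene had the densest peaks of the 3 genes, and none lay inside the gene. Its 15 peaks were distal intergenic, with 7 upstream and 8 past the gene end. The strongest lay 38.1 kb upstream (1267043 to 1268159), was 1117 bp wide and held 311, 255 and 363 reads, or 5.88, 4.50 and 4.42 RPM (mean 4.93 ± 0.825, SD, n = 3). This was a log2 ratio of 1.11 ± 0.12 (SE) to its class (edgeR adjusted p = 3.15e-15). The lowest replicate of this peak was above the highest replicate of every opsin and RYamide receptor peak.

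The second strongest adhesion receptor E5 peak lay 22.5 kb upstream (1282854 to 1283821), with 2.90, 3.25 and 3.08 RPM (3.08 ± 0.174) and a log2 ratio of 0.64 (adjusted p = 4.29e-05). The third lay 22.9 kb past the start on the far side of the gene (1329157 to 1329723), with 2.73, 1.49 and 2.07 RPM (2.10 ± 0.621) and a log2 ratio of 0.85 (adjusted p = 6.09e-07). Replicates agreed closely at the second and differed at the third, where replicate 1 was well above replicate 2. A narrower peak 33.5 kb past the start (1339823 to 1340165) had 1.64, 1.41 and 1.53 RPM (1.53 ± 0.117) and a log2 ratio of 1.11 (adjusted p = 5.76e-10). The weakest, 11.4 kb upstream (1294630 to 1294848), had 0.453, 0.650 and 0.400 RPM (mean 0.501) and was not called.

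Close to the start of the adhesion receptor E5 gene lay a pair of narrow peaks. The nearer one, 3.08 kb upstream (1303002 to 1303208), held 80, 45 and 71 reads, or 1.53, 0.809 and 0.873 RPM (mean 1.07 ± 0.398), and was the densest of the 37 peaks. Its log2 ratio to the distal intergenic class was 1.30 ± 0.17 (SE, edgeR adjusted p = 1.73e-10), and all 3 replicates lay above the class median. The farther one, 3.91 kb upstream (1302159 to 1302377), had 0.981, 0.668 and 0.910 RPM and a log2 ratio of 0.91 (adjusted p = 2.82e-05), a call lost only when reads were not divided by width (log2 ratio 0.35, adjusted p = 0.105). Neither is a promoter peak by the 3 kb rule, and both miss it by under 1 kb.

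In all, 7 of the 15 adhesion receptor E5 peaks were called higher, 4 upstream and 3 past the end, and 0 lower, against 22.1% higher among distal intergenic peaks. All 15 lay above the class median in value and above background in each library, a share that was 88.8% among distal intergenic peaks. The peak 55.9 kb past the start (mean 0.750 RPM, log2 ratio 0.87, adjusted p = 1.37e-04) lost its call without replicate 3 (log2 ratio 0.60, adjusted p = 0.118) and without division by width (0.18, adjusted p = 0.445). Reads were spread over many peaks, with 21.2% ± 2.16 (SD, n = 3) of the gene's reads in the strongest peak and 54.5% ± 3.63 upstream. The nearest listed genes, evm.TU.ctg485.28 and evm.TU.ctg485.30, lay 124.3 and 220.5 kb away, so the assignment of these peaks rests on distance across a gap of 347.0 kb. Which gene these peaks act on was not tested.

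Each gene was then compared with genes of like length and peak number. Like genes had a length within 1.5 times that of the receptor gene and a close number of peaks, which was 8 to 11 for opsin, 11 to 16 for the RYamide receptor and 12 to 18 for the adhesion receptor E5. A gene's level was the reads of its assigned peaks divided by their summed width. Among all tested genes, 28.1% were called higher and 22.1% lower than the median of their like genes (edgeR quasi-likelihood test, Benjamini-Hochberg over 11815 genes).

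**Figure D3:**
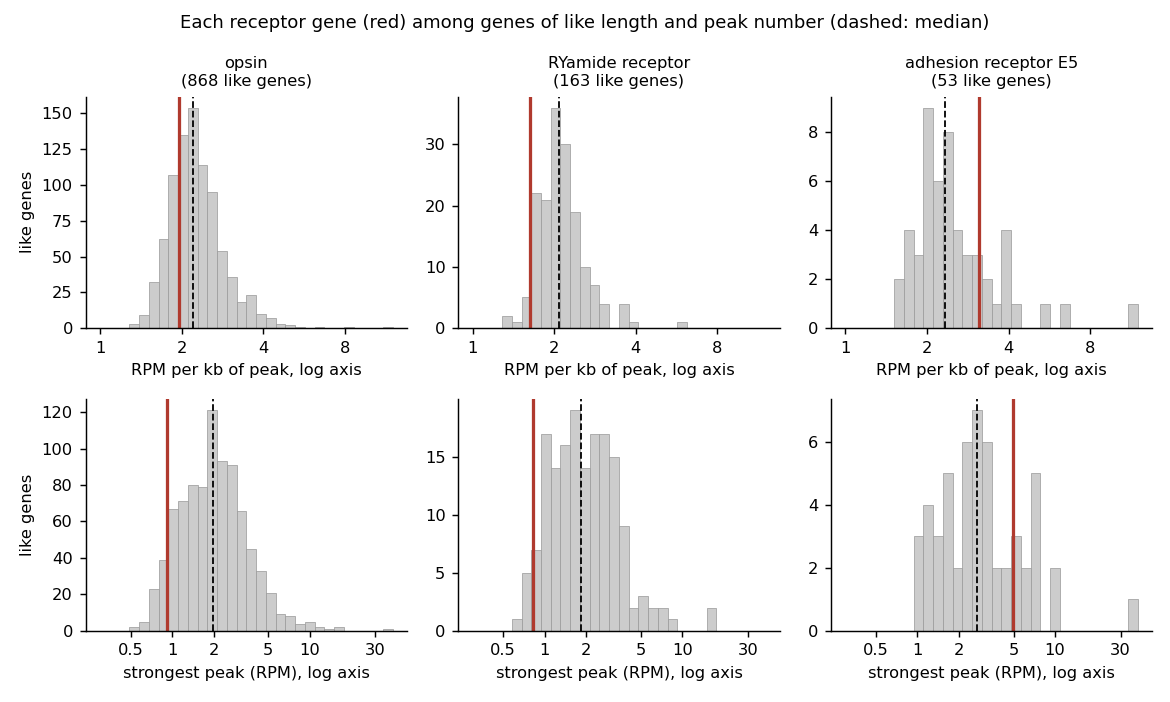
Histograms of the like genes of each receptor gene (y axis, number of genes) by gene level (top row, RPM per kb, log axis) and by strongest peak (bottom row, RPM, log axis), with the receptor gene's mean over 3 replicates as a red line and the median of the like genes dashed. The red line lies right of the median for the adhesion receptor E5 (3.12 against 2.32 RPM per kb) and left of it for the RYamide receptor (1.63 against 2.08) and opsin (1.96 against 2.20).

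The adhesion receptor E5 had levels of 3.37, 2.92 and 3.08 RPM per kb in replicates 1, 2 and 3 (mean 3.12 ± 0.224, SD, n = 3). The median of its 53 like genes was 2.32 RPM per kb, and 40 of the 53 (75.5%) lay below it. The log2 ratio was 0.44 ± 0.065 (SE, edgeR adjusted p = 3.81e-06), a 1.36-fold higher level, and it held without any 1 replicate (0.40 to 0.47). The peaks were also wide in the merged list: summed width was 7411 bp against a median of 5388 bp, and summed RPM was 23.2 ± 1.66 against 13.2. The absence of peaks inside the gene was common among short genes, since 33 of the 53 (62.3%) had none inside. A promoter peak was present in 54.7% of the like genes.

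The RYamide receptor had levels of 1.66, 1.70 and 1.52 RPM per kb (mean 1.63 ± 0.0934), against a median of 2.08 RPM per kb in 163 like genes, of which 6 (3.68%) lay below it. The log2 ratio was -0.37 ± 0.085 (SE, edgeR adjusted p = 8.05e-04), a level 0.773 times that of the like genes. The call rested in part on replicate 3, the lowest, without which the log2 ratio was -0.31 (adjusted p = 0.0523). Its strongest assigned peak, at 0.827 RPM, was below the like median of 1.84 RPM, and a promoter peak was present in 49.1% of the like genes. Of the 5 peaks over the gene that were assigned to its neighbour, and so left out here, the strongest had 1.53 RPM.

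Opsin had levels of 1.90, 1.84 and 2.14 RPM per kb (mean 1.96 ± 0.160), against a median of 2.20 RPM per kb in 868 like genes, of which 25.7% lay below it. The difference did not pass the test, with a log2 ratio of -0.18 ± 0.093 (SE, edgeR adjusted p = 0.115). Opsin did differ from its like genes when reads were not divided by width. Its summed width was 2318 bp against 3529 bp, and its summed reads without division by width had a log2 ratio of -0.79 (edgeR adjusted p = 1.10e-07). Its strongest peak, 0.919 RPM against a median of 1.99 RPM, had a log2 ratio of -1.12 (adjusted p = 1.03e-07). By rank, 4.49% of the like genes had a lower summed RPM and 7.49% a weaker strongest peak. The shares of all genes called without division by width are not given here. The nearest opsin peak was also farther from the start, at 9.16 kb against a median of 1.45 kb, and 83.4% of the like genes had a nearer one. Of the like genes, 60.5% had a promoter peak.

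By level the genes ranked adhesion receptor E5, opsin, RYamide receptor in each replicate. The log2 difference between the adhesion receptor E5 and opsin was 0.82, 0.67 and 0.53 in replicates 1, 2 and 3 (mean 0.67 ± 0.15, SD), above its spread. Between the adhesion receptor E5 and the RYamide receptor it was 1.02, 0.79 and 1.02 (0.94 ± 0.13). Opsin and the RYamide receptor differed by 0.19, 0.11 and 0.49 (0.27 ± 0.20), only slightly more than the spread, although the levels of the 2 genes did not overlap. Flipping the signs of the 3 differences in every way (an exact permutation test, two-sided), each of the 3 pairs gave p = 0.25 (adjusted p = 0.25), the smallest that 3 replicates allow.

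The spread between replicates differed among the genes. The median coefficient of variation was 31.3% over opsin peaks, 24.6% over RYamide receptor peaks and 19.2% over adhesion receptor E5 peaks. Peaks of like read number elsewhere had medians of 22.8%, 23.2% and 18.9%. Of the 37 peaks, 13 were highest in replicate 1, 13 in replicate 2 and 11 in replicate 3. Over all peaks these shares were 36.6%, 27.2% and 36.2%. Wider peaks had more RPM, with Spearman correlations across peaks of 0.712 for opsin, 0.708 for the RYamide receptor and 0.856 for the adhesion receptor E5, over 9, 13 and 15 peaks that share their libraries. More than 1 summit was listed for 3 opsin peaks, 3 RYamide receptor peaks and 9 adhesion receptor E5 peaks, against 45.1% of all peaks. The strongest adhesion receptor E5 peak had 9 summits and the second strongest 13, numbers reached by 3.59% and 1.13% of all peaks. Among distal intergenic peaks the shares were 3.94% and 1.31%. These 2 peaks were also wide, at 1117 and 968 bp against a median of 317 bp over all peaks. Over all peaks, 269595 summits were listed. The listed summits outnumber those that the study reports for these libraries together, so part of them came from other calls, possibly of other samples. The number of summits in a peak and its width are thus not measures of these libraries alone.

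Surroundings differed less than the genes. Between the neighbouring listed genes, peaks of any assignment numbered 7.80 per 100 kb around opsin, 6.19 around the RYamide receptor and 6.92 around the adhesion receptor E5, against 6.84 over the contigs. Median densities over all peaks of the 3 contigs were 2.03, 1.93 and 2.23 RPM per kb, in the same order as the genes' levels, and the part of the contigs in that order was not tested.

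The study lists 12 further candidate GPCR genes. The study chose the 12 with these samples among its data, so the list is not independent evidence. Its structure predictions bore out the 3 genes described here and, of the 12, only evm.TU.ctg321.8 and evm.TU.ctg71.25 as GPCRs. The others, with evm.TU.ctg308.1 and evm.TU.ctg288.3 among them, remain candidates by their annotation. Of the 12, 3 were called higher than their like genes, 6 lower and 3 were not called, with a median log2 ratio of -0.19 against -0.0017 over all genes. The higher ones were evm.TU.ctg308.1 (log2 ratio 0.92), evm.TU.ctg288.3 (0.63) and evm.TU.ctg321.8 (0.31), the last being a Frizzled gene by its annotation, which codes for a Wnt receptor. Levels ran from 1.56 RPM per kb at evm.TU.ctg445.18_evm.TU.ctg445.12 to 4.05 RPM per kb at evm.TU.ctg308.1, with a median of 2.19, against 2.22 over all genes. Among the 15 genes the adhesion receptor E5 ranked 3, opsin 9 and the RYamide receptor 14. A promoter peak was present in 5 of the 12 and a peak over the start in 4.

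**Figure D4:**
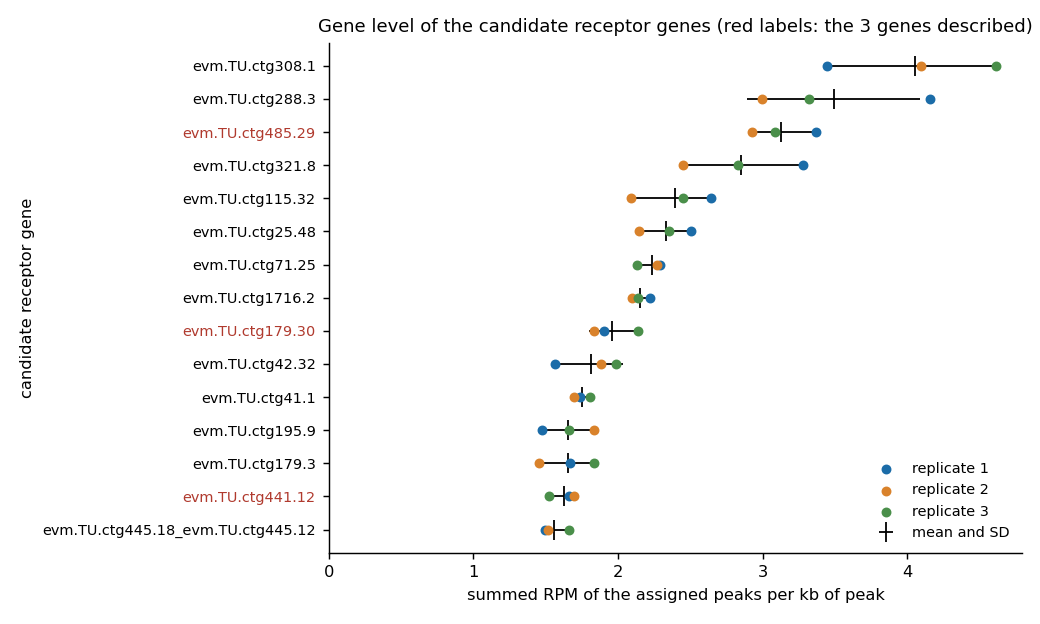
Gene level (x axis, RPM per kb of peak) of the 15 candidate receptor genes, ranked from high to low, with 1 point per replicate, a tick at the mean and a line for the SD (n = 3), and red labels for the 3 receptor genes described. The adhesion receptor E5 is in place 3 at 3.12, opsin in place 9 at 1.96 and the RYamide receptor in place 14 at 1.63.

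The genes most like each receptor gene were found by the distance over 4 measures (log2 length, number of peaks, level and strongest peak, each scaled to unit SD). For opsin these were evm.TU.ctg352.18 (distance 0.0994, 9 peaks, 2.01 RPM per kb) and evm.TU.ctg171.12 (0.134, 9 peaks, 1.89 RPM per kb). For the RYamide receptor they were evm.TU.ctg1359.4 (0.178, 12 peaks, 1.65 RPM per kb) and evm.TU.ctg36.28 (0.270, 12 peaks, 1.69 RPM per kb). For the adhesion receptor E5 they were evm.TU.ctg533.2 (0.222, 18 peaks, 3.14 RPM per kb) and evm.TU.ctg153.3 (0.272, 14 peaks, 3.16 RPM per kb). Level was among the 4 measures, so levels close to those of the receptor genes follow from the choice. The median distance of a listed gene was 1.91 from opsin, 2.53 from the RYamide receptor and 2.87 from the adhesion receptor E5.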

How the data were processed

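ATAC-seq was analysed in 3 ArR_30min libraries. Per its methods, the study used BWA for alignment to *A. franciscana* (ASM3288406v1) and MACS2 for peaks, and ChIPseeker for their location. Regions that diverge between the cyst species and the assembly species may lose reads. The authors deposited read counts per merged peak and library, not normalised. The deposited RPM values equal the count plus 1 over a library total, from which the totals were recovered. The study used peaks merged over all its groups for correlations, and whether this table is that list is not given in the sources used here. The recovered totals are close to double the deduplicated reads that the study lists, so both mates of a pair were probably counted, which makes the Poisson p-values too small. The number of other per-sample columns was 0.

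Counts were fitted in edgeR 4.0.16 with TMM factors, offsets for width and for the median of the class or like genes, and an intercept only. The F statistic was formed from the deviances of the fitted and the null model, since glmQLFTest takes no intercept-only design, and was tested on simulated data. Calls used an adjusted p below 0.05. Like genes needed at least 20 members. Alternatives were DESeq2 1.42.0, limma 3.58.1, other size factors, at least 30 reads, halved counts, other medians, no division by width, other windows and background, and each replicate left out. With 3 replicates of 1 batch, p-values of the fits measure the spread between these samples. The Poisson tests against background cover counting error only, since they hold no term for spread between libraries. The PCR reads carry no molecular identifiers. Named were, of each gene, the 3 strongest peaks, the weakest, the nearest to the start, promoter peaks and peaks over the gene. Other peaks were named after their values were seen. The genes, lists and rules were chosen with earlier results of these data known.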

Additional observations from a re-analysis of the deposited data

How the results depend on the processing

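Of the 37 receptor peaks, 11 differed from their class (7 higher, 4 lower). Without division by width the counts were 23, 12 and 11, and opsin went from 0 called peaks to 5. The share of all peaks called in that setting is not given here. With DESeq2, 2 peaks were lower. Leaving out 1 replicate gave 7 to 9 differing peaks, 7 higher in each case (not the same 7 without replicate 3) and 0 to 2 lower. With a background 2 times higher, 15 of the 37 peaks stayed above it in place of 33, against 51.6% of all peaks, and with counts halved 24, against 82.1%, while the 11 calls against the class stayed 11. At gene level, opsin was called lower by its strongest peak (log2 ratio -1.12) and by summed reads (-0.79). The shares of all genes called in these settings are not given here. Leaving out 1 replicate gave opsin log2 ratios of -0.24 to -0.14. The RYamide receptor gave -0.43 to -0.31 when 1 replicate was left out, and lost its call without replicate 3. The adhesion receptor E5 kept its call under every alternative run. A promoter window of 5 kb gave 3 promoter peaks in place of 1. No called value changed direction under the alternatives run. For single peaks, 409 values kept their side of the threshold under the alternatives, 18 passed it and 17 lost it. The cause of these changes was not tested, and leaving out a replicate also lowered the number of samples. No paired analysis was possible because the series holds 1 group. Under 100 reads over the libraries were held by 7 of 9 opsin peaks, 9 of 13 RYamide receptor peaks and 1 of 15 adhesion receptor E5 peaks.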
